A study of Mus musculus with 12 samples.

Results

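*Il3*, *Csf2*, *Il4*, *Il5* and *Il13* encode interleukin 3, GM-CSF, interleukin 4, interleukin 5 and interleukin 13, and they lie on mouse chromosome 11 together with *Rad50*, a gene for a DNA repair protein. These 6 genes were taken by gene name from the 24439 genes listed for each RNA-Seq library of CD4 T blast cells. All 6 were among the 12442 genes tested, which exceeded 1 TPM (transcripts in every 1000000, corrected for gene length) in at least 1 library. The stretch from the first to the last of them spans 664 kb of chromosome 11 on mm9 (GENCODE M1 gene models). *Il4* (minus strand, 53416484 to 53432171) is followed after 12.7 kb by *Il13* (minus strand, 53444826 to 53448204). *Rad50* (minus strand, 53463021 to 53520821) starts the next block and is followed after 13.5 kb by *Il5* (plus strand, 53534296 to 53538608). *Csf2* (minus strand, 54060773 to 54063169) lies 522 kb beyond *Il5*, and *Il3* (minus strand, 54078805 to 54080779) lies 15.6 kb beyond *Csf2*.

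The 5 cytokine genes are silent or nearly so in resting T cells. In previously activated T cells they are transcribed within hours when the T cell receptor raises calcium and activates kinases, through NFAT, AP-1 and related factors. IL-4, IL-5 and IL-13 are the signature products of type 2 helper (Th2) cells, and their genes share a locus control region that lies inside *Rad50*. IL-3 and GM-CSF act on blood cell precursors and myeloid cells and are made by several kinds of activated T cell. IL-2 is the growth factor of activated T cells and signals through JAK kinases and STAT5.

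CD4 T cells were purified with microbeads from spleens of C42 transgenic mice backcrossed to C57BL/6J, activated with 2 µg/ml concanavalin A for 40 h, and grown as T blasts in 50 U/ml IL-2. TB IL-2 cells were kept in IL-2, TB IL-2nil cells spent the last 16 h without it, and TB+ IL-2 and TB+ IL-2nil are such cells after a further 2 h with the phorbol ester PMA at 20 ng/ml and the calcium ionophore A23187 at 2 µM (PMA/I), which stand in for T cell receptor signals. Each of the 4 groups holds 3 libraries, numbered 1 to 3. Age and sex of the mice, and whether the libraries of a group came from separate mice or cultures, are not given in the sources used here, so that P-values measure the spread between these libraries. All 4 groups carry a 130-kb fragment of the human IL3/CSF2 locus, and whether reads of the human genes were counted in mouse *Il3* and *Csf2* was not tested. In bulk RNA, fewer cells that express a gene and less RNA of it per cell cannot be told apart.

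The libraries labelled TB IL-2nil replicate 3 and TB+ IL-2 replicate 3 went against their labels. The first listed *Il3* at 2026 TPM and the second at 0.377 TPM, whereas the other 5 libraries labelled as PMA/I-treated ranged from 752 to 5779 TPM and the other 5 resting ones from 0 to 1.65 TPM. In the study's own expression table each of the pair stands under the other's name, judged by the rank order of its genes. They are therefore placed here in each other's group, as number 3 of TB+ IL-2 and of TB IL-2nil. Results by the labels are given for each comparison, and results without both libraries beside most values.

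Within these placements the markers of CD4 T cells summed to 1185 to 2164 TPM, those of CD8 T cells to 6.91 to 31.9, those of myeloid cells to 1.74 to 4.88 and those of NK cells to at most 0.303. The 7 markers of mast cells and basophils, which also make IL-4 and IL-13, summed to 0.630 to 2.66 TPM. Of these, 3 passed the filter of over 1 TPM in at least 1 library. *Fcer1a*, *Mcpt4* and *Prss34* were at 0 in all 12 libraries, and *Mcpt8* was above 0 in TB IL-2nil alone. Relative depth, read from the steps between low values, ranged from 0.392 to 1.03 times that of TB IL-2 number 1, and TB IL-2nil number 2 was the shallowest.

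The stretches just upstream of the 5 cytokine genes are shown because the levels of these 5 genes after PMA/I ranged from 1.47 to 5779 TPM. They are RefSeq promoters, matched base for base to mm9, of which the 250 bases before the start are printed, 5′ to 3′ in the direction of the gene. Capitals mark GGAAA or its reverse complement, the core letters that NFAT proteins bind.

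They lie on chromosome 11 at 54080782 to 54081031 for *Il3*, 54063402 to 54063651 for *Csf2*, 53432168 to 53432417 for *Il4*, 53448205 to 53448454 for *Il13* and 53534046 to 53534295 for *Il5*, the last on the plus strand and the others on the minus strand. The RefSeq start of *Csf2* lies 232 bases upstream of the GENCODE start, whereas the other starts differ by at most 4 bases. The promoter table used holds no entry for *Rad50*.
Il3: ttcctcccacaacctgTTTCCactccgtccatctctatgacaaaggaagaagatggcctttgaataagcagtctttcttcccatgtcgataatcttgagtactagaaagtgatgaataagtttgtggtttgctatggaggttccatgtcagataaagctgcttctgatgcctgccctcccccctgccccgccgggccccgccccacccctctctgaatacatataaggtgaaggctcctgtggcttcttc
Csf2: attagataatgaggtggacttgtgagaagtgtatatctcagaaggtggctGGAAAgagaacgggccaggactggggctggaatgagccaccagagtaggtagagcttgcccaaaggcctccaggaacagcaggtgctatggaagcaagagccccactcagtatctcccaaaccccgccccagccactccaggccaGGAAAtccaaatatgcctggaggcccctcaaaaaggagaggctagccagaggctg
Il4: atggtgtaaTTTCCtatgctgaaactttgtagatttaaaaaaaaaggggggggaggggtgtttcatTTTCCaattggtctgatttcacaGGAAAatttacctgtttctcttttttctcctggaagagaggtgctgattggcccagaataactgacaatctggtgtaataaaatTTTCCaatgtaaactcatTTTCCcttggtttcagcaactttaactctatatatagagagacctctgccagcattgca
Il13: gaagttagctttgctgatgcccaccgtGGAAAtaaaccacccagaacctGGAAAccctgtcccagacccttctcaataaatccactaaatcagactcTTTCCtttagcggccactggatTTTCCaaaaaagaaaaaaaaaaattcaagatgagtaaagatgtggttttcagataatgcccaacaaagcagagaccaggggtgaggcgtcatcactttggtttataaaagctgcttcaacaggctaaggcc
Il5: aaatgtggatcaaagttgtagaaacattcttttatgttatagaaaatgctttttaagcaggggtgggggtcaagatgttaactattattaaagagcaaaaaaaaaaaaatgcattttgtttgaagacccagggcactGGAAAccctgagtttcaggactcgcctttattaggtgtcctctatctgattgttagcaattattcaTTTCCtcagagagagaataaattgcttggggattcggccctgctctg

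GGAAA was matched on either strand in all 5 stretches, and 55.6% of the 32851 RefSeq promoters of this length hold it. *Il4* had 5 matches, a number reached by 0.390% of promoters, and *Il13* had 4, a number reached by 1.59%. *Csf2* and *Il5* had 2 each, and *Il3* had 1, at -234 from the start. GATA, the core of sites for GATA factors, was found in 4 of 5, all but *Il4*, and in 53.6% of all promoters. TGTGGT, a RUNX site, was found in *Il3* and *Il13* and in 14.05% of all promoters. TATAAA was found in *Il13* alone, as a pair of overlapping matches at -31 and -29, and in 12.4% of all promoters. Neither TGANTCA, an AP-1 site that 6.75% of promoters hold, nor TTCNNNGAA, a STAT5 site that 7.02% hold, was found in any of the 5. For *Csf2* the 232 bases from the RefSeq start to the GENCODE start were not searched, so a motif absent from its stretch could lie there. These letter matches are descriptions of the stretches and not sites of binding, and no other motifs overlapped each other.

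Levels are TPM after upper-quartile scaling between libraries, a unit that accounts for gene length, so that levels of different genes can be set side by side. Differences were fitted on log2(TPM + 1) with limma over all 12 libraries, and P-values were adjusted by Benjamini-Hochberg over all 12442 genes. A gene was called where its difference exceeded 3-fold and its adjusted P was below 0.05. The pseudocount of 1 understates changes of genes with a low level in 1 group.

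In T blasts kept in IL-2, PMA/I raised *Il3*, *Csf2*, *Il13* and *Il4* from 19.6 TPM or less to 1140.2 TPM or more within 2 h. *Il3* had the largest rise of all 12442 genes on the log2(TPM + 1) scale. 4 of the 6 genes were called higher, against 3.94% of all genes tested, and none was called lower, against 3.1%. The median log2 difference of the 6 genes was 7.78, and that of all genes was -0.22. The groups did not overlap for 4 genes that were higher, against 16.6% of all genes, and for 1 that was lower, against 35.1%. *Rad50* fell, and *Il5* did not pass the test.

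*Il3* was listed at 0.262, 0 and 0 TPM in TB IL-2 numbers 1 to 3, and at 3751, 5779 and 2026 TPM in TB+ IL-2. Resting libraries thus held next to none of the transcript, and each PMA/I-treated library held 2026 TPM or more. The log2 difference was 11.67 ± 0.44 (SE; adjusted P = 4.04e-08), which ranked 1 among all genes. Without both libraries in doubt it was 12.06, and by the labels 8.17 with an adjusted P of 0.286.

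*Csf2* was at 3.41, 4.27 and 2.31 TPM in TB IL-2 and at 2332, 3656 and 1736 TPM in TB+ IL-2. The groups did not overlap, and the ratio of their means was 773. The log2 difference was 9.17 ± 0.35 (SE; adjusted P = 4.27e-08), which ranked 7. It was 9.42 without both libraries and 5.93 by the labels (adjusted P = 0.413).

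*Il4*, whose product drives Th2 differentiation and the class switch to IgE, was the most abundant of the 5 at rest. It was at 19.6, 14.6 and 9.35 TPM in TB IL-2 and at 2891, 2958 and 1302 TPM in TB+ IL-2, a 164-fold ratio of means. The log2 difference was 7.23 ± 0.45 (SE; adjusted P = 1.57e-06), rank 20. It was 7.62 without both libraries and 4.63 by the labels (adjusted P = 0.401).

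*Il13*, whose product acts on epithelium and smooth muscle in allergic responses, was at 12.5, 3.10 and 2.03 TPM in TB IL-2 and at 2964, 1672 and 1140 TPM in TB+ IL-2. The mean ratio was 328, and the groups were well apart. The log2 difference was 8.34 ± 0.62 (SE; adjusted P = 5.57e-06), rank 11. It was 8.66 without both libraries and 5.18 by the labels (adjusted P = 0.466).

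After PMA/I *Il5*, whose product supports eosinophils, was far below the other cytokine genes and varied most between libraries. It was at 5.50, 2.13 and 0.541 TPM in TB IL-2 and at 107, 31.6 and 2.20 TPM in TB+ IL-2. The TB+ IL-2 library of number 3 lay within the range of TB IL-2, so the groups overlapped, although within each number the PMA/I-treated library was higher, by 19.5-fold, 14.9-fold and 4.07-fold. The fitted log2 difference came to 2.83 ± 1.3 (SE; adjusted P = 0.114) and *Il5* was not called. With the replicate number as a block the adjusted P was 0.0160, in a fit that called 4.03% of all genes higher, without both libraries the difference was 4.24 with an adjusted P of 0.0272, and without the TB+ IL-2 library of number 3 alone it was 4.24 with an adjusted P of 0.0192, so that *Il5* was called in each. By the labels the difference was 2.27 (adjusted P = 0.568).

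*Rad50*, a subunit of the MRE11 complex that senses DNA breaks, moved the other way. It was at 32.7, 32.2 and 32.3 TPM in TB IL-2 and at 9.61, 13.2 and 14.6 TPM in TB+ IL-2. The libraries of each group were close together and the groups did not overlap. The groups differed on the log2 scale by -1.33 ± 0.16 (SE; adjusted P = 0.000137), less than 3-fold, and 23.3% of all genes were lower at an adjusted P under 0.05. It was -1.44 without both libraries and -1.26 by the labels (adjusted P = 0.0415).

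**Figure D1:**
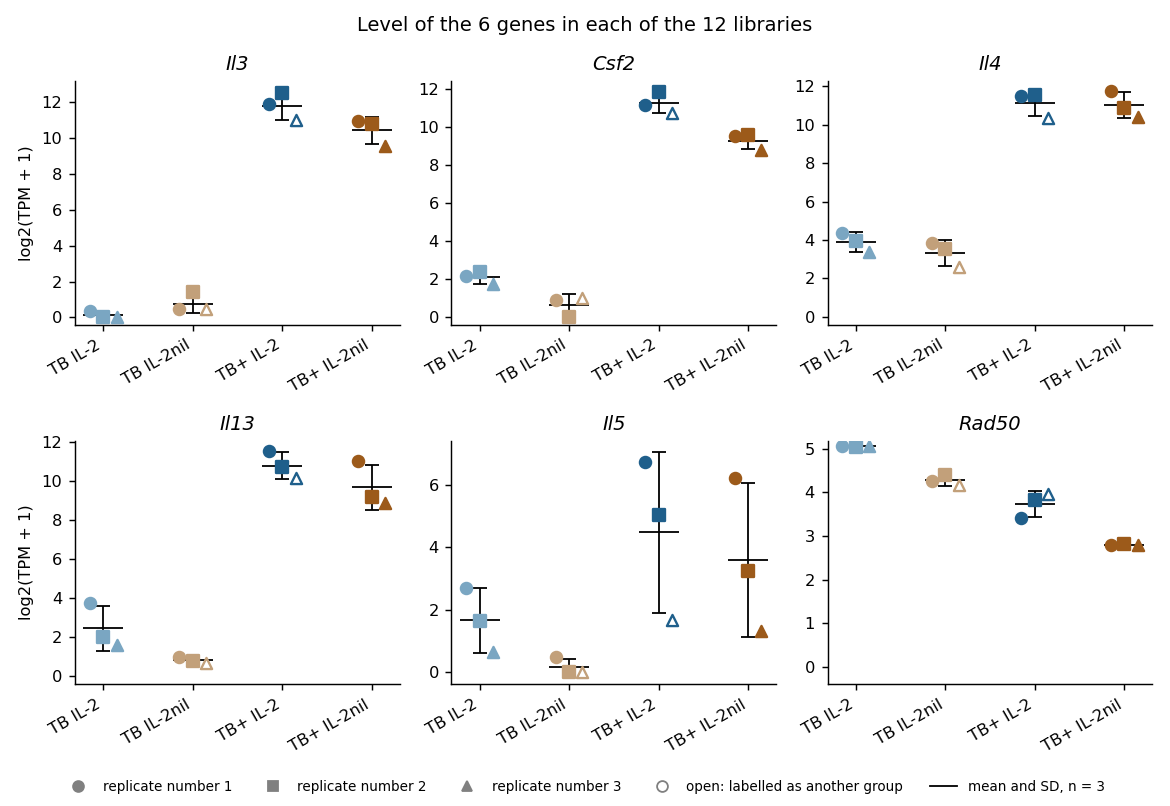
Level of each gene as log2(TPM + 1) (y axis) in the 4 groups (x axis), with a symbol per library and bars for the mean and SD of 3 libraries. Open symbols are the libraries labelled as another group; Il3, Csf2, Il4 and Il13 are at 442 TPM or more in all 6 PMA/I-treated libraries, Il5 spreads from 1.47 to 107 TPM there, and Rad50 is lowest in TB+ IL-2nil.

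The same question was then asked of T blasts that had spent 16 h without IL-2. All 5 cytokine genes rose and were called, against 7.78% of all genes tested, and none of the 6 was called lower, against 10.7%. The median log2 difference of the 6 genes was 8.16 and that of all genes -0.38. The groups did not overlap for any of the 6 genes, whereas over all genes 21.8% were higher and 42.3% lower without overlap.

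*Il3* was at 0.380, 1.65 and 0.377 TPM in TB IL-2nil and at 1949.7, 1777 and 752 TPM in TB+ IL-2nil. Every PMA/I-treated library was at least 1074 times its resting counterpart of the same number. This was a log2 difference of 9.65 ± 0.44 (SE; adjusted P = 1.05e-07), rank 3. It was 9.48 without both libraries.

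*Csf2* was at 0.896, 0 and 1.04 TPM in TB IL-2nil and at 730, 754 and 442 TPM in TB+ IL-2nil. The library that listed it at 0 was the shallowest of the 12. In limma the log2 difference was 8.64 ± 0.35 (SE; adjusted P = 5.77e-08), rank 13. It was 8.82 without both libraries.

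*Il4* was at 13.4, 10.5 and 4.94 TPM in TB IL-2nil and at 3376, 1872 and 1336 TPM in TB+ IL-2nil, a 228-fold ratio of means. On the log2 scale the difference was 7.68 ± 0.45 (SE; adjusted P = 5.25e-07), rank 24. It was 7.30 without both libraries.

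*Il13* was at 0.995, 0.721 and 0.622 TPM in TB IL-2nil and at 2068, 578 and 470 TPM in TB+ IL-2nil. Its mean ratio of 1333 was larger than that of *Il4*. The fitted log2 difference came to 8.87 ± 0.62 (SE; adjusted P = 1.66e-06), rank 9. It was 8.79 without both libraries.

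*Il5* was at 0.378, 0 and 0 TPM in TB IL-2nil and at 73.9, 8.36 and 1.47 TPM in TB+ IL-2nil. Again 1 library of the PMA/I-treated group held most of the signal. The groups differed on the log2 scale by 3.43 ± 1.3 (SE; adjusted P = 0.0388), and leaving out 1 library at a time gave 2.15 to 4.58. *Il5* was called in 7 of 12 such fits, and not without any 1 of the TB IL-2nil libraries or without number 1 or 2 of TB+ IL-2nil. It was 3.34 with both libraries in doubt left out (adjusted P = 0.0420). With no filter on low values the adjusted P was 0.0766, and *Il5* was not called.

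*Rad50* was at 18.3, 20.1 and 16.9 TPM in TB IL-2nil and at 5.89, 6.07 and 5.96 TPM in TB+ IL-2nil. The fall was seen in every number, to between 0.302 and 0.353 times the resting level. This was a log2 difference of -1.47 ± 0.16 (SE; adjusted P = 2.02e-05), less than 3-fold, where 41.1% of all genes were lower at an adjusted P under 0.05. With a pseudocount of 0.1 it was -1.61 (adjusted P = 4.08e-05) and without scaling between libraries -1.96 (adjusted P = 0.000117), and *Rad50* was called lower in both. It was -1.54 with both libraries in doubt left out. By the labels the differences of the 5 cytokine genes in this comparison were 2.87 to 6.14, with adjusted P-values from 0.157 to 0.230, and that of *Rad50* was -1.41 with an adjusted P of 0.0199.

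**Figure D2:**
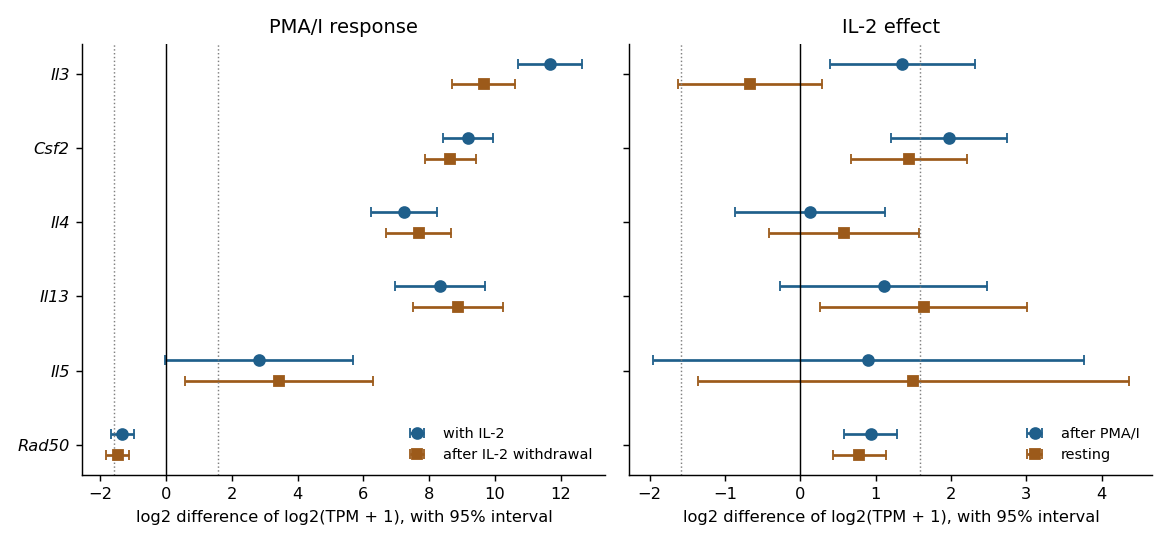
Log2 differences on the log2(TPM + 1) scale (x axis) of each gene (y axis) with 95% intervals, for the PMA/I response with and after withdrawal of IL-2 (left) and for the IL-2 effect after PMA/I and at rest (right). Dotted lines mark 3-fold; 4 cytokine genes lie beyond 7 in both PMA/I responses, and in the IL-2 effect after PMA/I the interval of Csf2 starts at 1.20 while that of Il4 spans 0.

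Cells stimulated after being kept in IL-2 were then compared with cells stimulated after its withdrawal. The level of *Csf2* was higher with IL-2 by more than 3-fold, that of *Il3* was higher by less, and that of *Il4* differed by less than the spread between libraries. 1 of the 6 genes was called higher, *Csf2*, against 3.21% of all genes, and none was called lower, against 0.41%. At an adjusted P under 0.05 alone, *Csf2*, *Il3* and *Rad50* were higher, against 12.9% of all genes, and these were also the 3 whose groups did not overlap, against 18.9%. The median log2 difference of the 6 genes was 1.02, and that of all genes -0.04.

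*Csf2* in TB+ IL-2nil was at 31.3%, 20.6% and 25.5% of the level in TB+ IL-2 of the same number, and the ratio of the group means was 25.0%. All 3 TB+ IL-2 libraries, at 1736 TPM or more, lay above all 3 TB+ IL-2nil libraries, at 754 TPM or less. In limma the log2 difference was 1.97 ± 0.35 (SE; 95% interval 1.20 to 2.74; adjusted P = 0.00323). Without both libraries it was 2.23 (adjusted P = 0.00876), and with a pseudocount of 0.1 it kept its size at 1.97 but had an adjusted P of 0.102.

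*Il3* in TB+ IL-2nil was at 52.0%, 30.7% and 37.1% of the level with IL-2 of the same number, and at 38.8% by group means. The lowest TB+ IL-2 library, at 2026 TPM, was only just above the highest TB+ IL-2nil library, at 1949.7 TPM. On the log2 scale the difference was 1.36 ± 0.44 (SE; 95% interval 0.40 to 2.32; adjusted P = 0.0478), less than 3-fold. Without both libraries it was 1.76 (adjusted P = 0.0360), and without the TB+ IL-2 library of number 3 alone 1.76 (adjusted P = 0.0279), which in both cases is a call. It was also called without scaling between libraries (1.75) and under quantile normalization (1.61), and without TB+ IL-2nil number 3 the difference was 0.92 with an adjusted P of 0.161. With the replicate number as a block the adjusted P of *Il3* was 0.00959, at a difference below 3-fold.

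*Il13* was at 69.8%, 34.6% and 41.2% of the level with IL-2, and the groups overlapped. The fitted log2 difference came to 1.11 ± 0.62 (SE; adjusted P = 0.232), with a 95% interval from -0.26 to 2.48. With the replicate number as a block its adjusted P was 0.0310, at a difference below 3-fold, and without both libraries in doubt the difference was 1.43 (adjusted P = 0.243).

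*Il4* was at 117%, 63.3% and 103% of the level with IL-2, and at 92.1% by group means. The groups differed on the log2 scale by 0.13 ± 0.45 (SE; adjusted P = 0.869). The 95% interval in this fit, from -0.86 to 1.13, leaves room for changes of up to about 2-fold either way. With the replicate number as a block the difference was 0.13 ± 0.17 (SE; adjusted P = 0.584). Its sign turned negative without 1 of 3 libraries, TB+ IL-2 number 1, TB+ IL-2 number 2 or TB+ IL-2nil number 3, and without both libraries in doubt the difference was 0.53.

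*Il5* was at 68.8%, 26.4% and 66.6% of the level with IL-2. This was a log2 difference of 0.90 ± 1.3 (SE; adjusted P = 0.664), with a 95% interval from -1.95 to 3.76. Without TB+ IL-2 number 1 or TB+ IL-2nil number 3 it turned negative, and its range over single left-out libraries was -0.24 to 2.31.

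*Rad50* was at 61.3%, 45.9% and 40.8% of the level with IL-2, and the groups did not overlap. In limma the log2 difference was 0.93 ± 0.16 (SE; adjusted P = 0.00252), less than 3-fold. It was 0.82 without both libraries (adjusted P = 0.0214).

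By the labels no gene of the 6 was called in this comparison, where 15 of all genes were. The differences of *Il3*, *Csf2*, *Il4* and *Il13* by the labels were -2.15, -1.27, -2.46 and -2.04, with adjusted P-values from 0.620 to 0.864. The marker sum of CD4 T cells was 1185 to 1321 TPM in TB+ IL-2 and 1686 to 2077 TPM in TB+ IL-2nil, and that of B cells was 2.36 to 3.31 TPM and 5.49 to 12.7 TPM. Their part in the result was not tested.

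**Figure D3:**
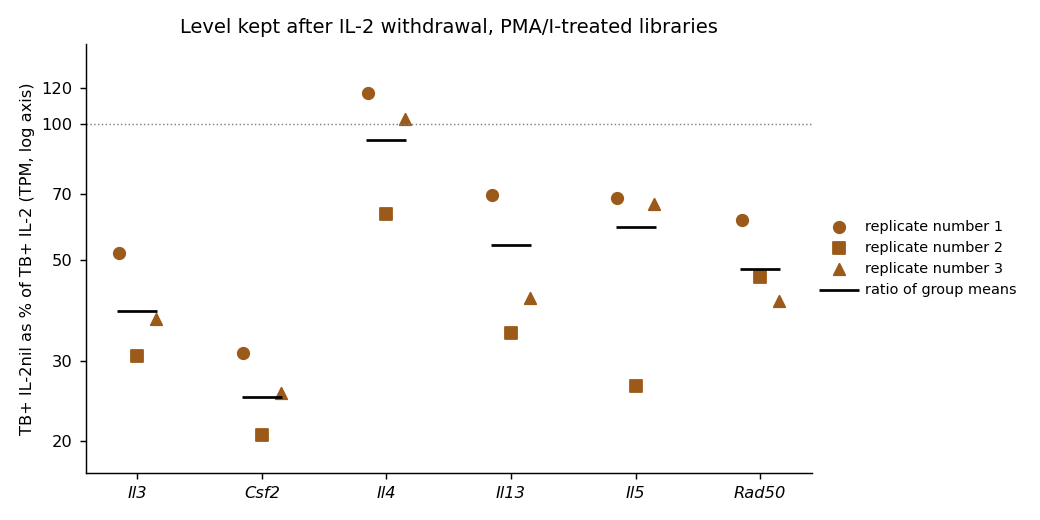
Level in TB+ IL-2nil as a percentage of TB+ IL-2 (y axis, log scale) for each gene (x axis), with a symbol for each replicate number and a line for the ratio of the group means. Csf2 has the lowest ratio of means, with its libraries at 20.6 to 31.3%, and Il4 lies on both sides of 100% (dotted line).

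The balance between the genes was measured as the log2 ratio of their TPM values within a library. The *Csf2* to *Il4* ratio was 0.14 ± 0.39 (SD, n = 3) in TB+ IL-2 and -1.70 ± 0.46 (SD, n = 3) in TB+ IL-2nil, and the groups did not overlap. The difference of 1.84 had an exact two-sided permutation P of 0.1, the smallest that 3 against 3 libraries allow. The *Il3* to *Il4* ratio was higher by 1.22 with IL-2, and the *Il3* to *Csf2* ratio was lower, with a difference of -0.62, both with the same exact permutation P of 0.1. The *Il13* to *Il4* ratio differed by 0.98 with overlapping groups (exact permutation P = 0.2). Adjusted over these 4 ratios the exact permutation P-values were 0.133, 0.133, 0.133 and 0.2, so that this design could not place any of them under 0.05.

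Together the 5 cytokine transcripts amounted to 12045, 14097 and 6206 TPM in TB+ IL-2, to 8198, 4990 and 3003 TPM in TB+ IL-2nil, and to 6.98 to 41.2 TPM in the 6 resting libraries. Number 3 was lowest in both stimulated groups. *Il3* held 31.1%, 41.0% and 32.6% of this sum in TB+ IL-2, and 23.8%, 35.6% and 25.1% in TB+ IL-2nil. *Il4* held 24.0%, 21.0% and 21.0% with IL-2 and 41.2%, 37.5% and 44.5% without it, so that *Il4* was the largest component in all 3 TB+ IL-2nil libraries and *Il3* in all 3 TB+ IL-2 libraries. In these 6 PMA/I-treated libraries *Il5* never exceeded 0.902% of the sum. By level, *Il3* ranked 20, 14 and 79 among all genes tested in the TB+ IL-2 libraries and 103, 113 and 181 in the TB+ IL-2nil libraries.

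**Figure D4:**
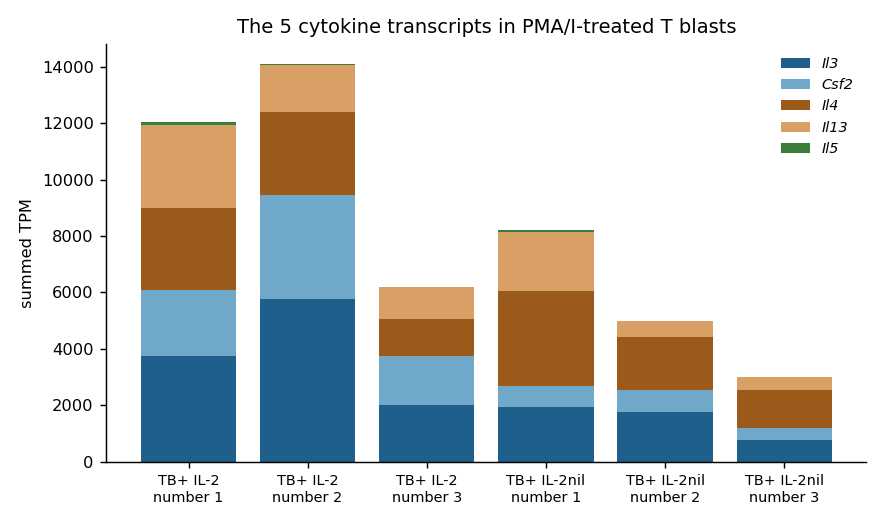
Summed TPM (y axis) of the 5 cytokine transcripts in the 6 PMA/I-treated libraries (x axis), stacked by gene. The sums run from 3003 to 14097 TPM, and Csf2 makes up 19.4 to 28.0% of them with IL-2 and 8.91 to 15.1% after withdrawal.

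In resting T blasts the 5 cytokine transcripts were low with and without IL-2. None of the 6 genes was called higher or lower, against 4.69% and 2.73% of all genes, although 3 of the 6 had an unadjusted P under 0.05 in limma. At an adjusted P under 0.05 alone *Csf2* and *Rad50* were higher with IL-2, against 17.3% of all genes, and none was lower, against 22.3%. The groups did not overlap for 4 genes that were higher, against 22.8% of all genes, and for 1 that was lower, against 30.4%. The median log2 difference of the 6 was 1.11, and that of all genes -0.13. With the replicate number as a block 1 gene, *Il13*, was called higher, against 4.89% of all genes in that fit.

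*Csf2* in TB IL-2, at 2.31 to 4.27 TPM, lay above TB IL-2nil, at 0 to 1.04 TPM. On the log2 scale the difference was 1.44 ± 0.35 (SE; adjusted P = 0.00810), just under 3-fold. Without both libraries in doubt it was 1.62 (adjusted P = 0.0108), with a pseudocount of 0.1 it was 2.78 (adjusted P = 0.0200) and with short RNAs left out 1.66 (adjusted P = 0.00533), all of which are calls. Leaving out TB IL-2 number 3 or TB IL-2nil number 3 alone also made it a call, with 1.62 as the largest value.

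*Il13* in TB IL-2, at 2.03 to 12.5 TPM, also lay above TB IL-2nil, at 0.622 to 0.995 TPM. The fitted log2 difference came to 1.64 ± 0.62 (SE; adjusted P = 0.0569), and with the replicate number as a block the adjusted P was 0.00341. Without 1 library it ranged from 0.98, without TB IL-2 number 1, to 2.06, without TB IL-2 number 3, and with TB IL-2 number 3 or TB+ IL-2nil number 1 left out it was called. It was also called with a pseudocount of 0.1 (2.35) and with short RNAs left out (1.81), and without both libraries in doubt it was 1.57 (adjusted P = 0.127).

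*Il4* overlapped between the groups and had a log2 difference of 0.58 ± 0.45 (SE; adjusted P = 0.325). Within each number its level was higher with IL-2, by 1.46-fold, 1.39-fold and 1.89-fold, and with the block its adjusted P was 0.0186, below 3-fold. Without both libraries the difference was 0.21 (adjusted P = 0.711). *Il5* lay at 0.541 to 5.50 TPM with IL-2 and at 0 to 0.378 TPM without, with a log2 difference of 1.503 ± 1.3 (SE; adjusted P = 0.380). *Il3* went the other way at the edge of detection, at 0 to 0.262 TPM with IL-2 and 0.377 to 1.65 TPM without, with a log2 difference of -0.67 ± 0.44 (SE; adjusted P = 0.246). With a pseudocount of 0.1 this difference was -2.26 (adjusted P = 0.0265), and the highest of the 3 values came from the shallowest library.

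*Rad50* was the steadiest of the 6 genes at rest. It was higher with IL-2 by 1.76-fold in the ratio of means, with a log2 difference of 0.78 ± 0.16 (SE; adjusted P = 0.00308). It was 0.72 without both libraries (adjusted P = 0.0140). By the labels none of the 6 was called in this comparison, where 12 of all genes were, and *Il3*, *Csf2*, *Il4* and *Il13* differed by -4.17, -1.81, -2.01 and -1.52. In TB IL-2 the markers of regulatory T cells summed to 31.4 to 68.7 TPM and those of B cells to 5.94 to 10.4 TPM. In TB IL-2nil they summed to 4.66 to 11.2 TPM and 23.2 to 29.6 TPM. Their part in the resting differences was not tested.

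Whether IL-2 changed the size of the PMA/I response was tested as an interaction, called at an adjusted P under 0.05 alone. None of the 6 genes passed in limma, 1 of them, *Il3*, at an unadjusted P under 0.05, and 1.57% of all genes passed with a larger response in IL-2 and 2.66% with a smaller one. *Il3* had an interaction of 2.02 ± 0.62 (SE; adjusted P = 0.0878) on the log2 scale, rank 57 from the top, and with the replicate number as a block its adjusted P was 0.0235, which is a call in a fit that called 6.11% of all genes with a larger response and 5.77% with a smaller one. It was 2.58 without both libraries (adjusted P = 0.0926) and 3.62 with a pseudocount of 0.1 (adjusted P = 0.0811). By the labels its adjusted P was 0.933. Its size could not change there, because both libraries trade places between groups that carry equal weight in the interaction. The interaction was 0.54 ± 0.50 (SE) for *Csf2*, -0.45 ± 0.64 for *Il4*, -0.53 ± 0.88 for *Il13*, -0.60 ± 1.84 for *Il5* and 0.15 ± 0.22 for *Rad50*, with adjusted P-values from 0.548 to 0.872. For *Csf2* both the resting and the stimulated level were higher with IL-2, and the fold response did not pass the test of a difference.

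*Il4*, *Il13* and *Il5* further varied together between replicate numbers. Over TB+ IL-2 and TB+ IL-2nil, number 1 lay above the mean of its group by 2.46 for *Il5*, 1.03 for *Il13* and 0.55 for *Il4* on the log2(TPM + 1) scale, and number 3 lay below it, with deviations of -2.55, -0.73 and -0.69. Number 1 was highest in all 4 groups for *Il5* and *Il13*, a pattern that 8.90% of all genes showed, and number 3 was lowest in all 4 groups for *Il4* and *Il13*, as in 5.18% of all genes. *Il3* and *Csf2* also had their lowest PMA/I-treated values in number 3, with deviations of -0.84 and -0.50, but their highest mean deviation in number 2, at 0.54 and 0.42. *Rad50* deviated by -0.17 to 0.11. For *Il5* the gap between the highest and the lowest of these deviations was 5.0, and 0.338% of genes had a larger one. What the libraries of a number share is not given in the sources used here.

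By group, *Il3* was highest in TB+ IL-2, then in TB+ IL-2nil, and near 0 in both resting groups, whose difference did not pass the test. *Csf2*, *Il4*, *Il13* and *Il5* had the order of levels TB+ IL-2, TB+ IL-2nil, TB IL-2 and TB IL-2nil. Within that order the PMA/I-treated pair and the resting pair of *Csf2* each differed at an adjusted P under 0.05 without the replicate block, and neither pair of *Il4*, *Il13* or *Il5* did. With the block both pairs of *Il13* and the resting pair of *Il4* also passed, and no test compared the genes with each other. TB+ IL-2nil and TB IL-2 were neighbours that were not fitted against each other, and their libraries overlapped for *Il5* but not for *Csf2*, *Il4* or *Il13*. *Rad50* had its own order, TB IL-2, TB IL-2nil, TB+ IL-2 and TB+ IL-2nil, in which no neighbouring groups overlapped.

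The genes most like each of the 6 were found by the correlation of log2 levels across the 12 libraries, which fall into 2 states of stimulation. For *Il3* these were *Olr1*, *Ccl1* and *Il31* (Pearson r from 0.992 to 0.996 over 12 libraries). For *Csf2* they were *Lipg*, *Ifng* and *Sesn2* (r from 0.991 to 0.994), with *Il13* in place 6 and *Il3* in place 13. For *Il4* they were *Tnfsf11*, the gene for RANKL, with *Rgcc* and *Eaf1* (r from 0.994 to 0.995). For *Il13* they were *Havcr2*, the gene for TIM-3, *Il4* and *Net1* (r from 0.986 to 0.992). *Il5* stood apart, with *Kcnj14*, *Slc4a5* and *Trpm6* at r from 0.928 to 0.931, and r from 0.727 to 0.808 with the other 4 cytokine genes. For *Rad50* they were *Baz1b*, *Dbnl* and *Coa3* (r from 0.976 to 0.980), and its r with the 5 cytokine genes was between -0.813 and -0.506.

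Of 9 receptor chains for these cytokines 5 passed the filter of 1 TPM, namely *Il3ra*, *Csf2ra*, *Csf2rb*, *Il4ra* and *Il2rg*. *Il4ra*, the chain shared by the IL-4 and IL-13 receptors, was the only one called, and only in the PMA/I response with IL-2. It stood at 178 ± 8.36 TPM (SD, n = 3) in TB IL-2 and at 43.0 ± 2.09 TPM in TB+ IL-2, a log2 difference of -2.03 ± 0.25 (SE; adjusted P = 0.000162). After withdrawal the difference was -1.14 ± 0.25 (SE; adjusted P = 0.00213), under 3-fold. In the IL-2 effect after PMA/I, *Csf2ra*, a GM-CSF receptor chain, was lower with IL-2, with a log2 difference of -1.26 (adjusted P = 0.0287), and *Il4ra* with one of -0.86 (adjusted P = 0.0314), both under 3-fold. Without scaling between libraries none of the 5 receptor chains was lower at an adjusted P under 0.05 there, and without both libraries in doubt 1 was. By the labels none passed in any comparison.

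Of 24 regulators known to act on these genes, all were tested, and 7 were called higher and 2 lower in the PMA/I response with IL-2, where 3.94% and 3.1% of all genes were. The largest rises were those of *Irf4* (log2 difference 4.92), *Gfi1* (3.52), *Tbx21* (3.36) and *Fosl1* (3.30), and the falls were those of *Nfatc2* (-2.57) and *Runx3* (-1.96). After withdrawal 11 were called higher and 4 lower, where 7.78% and 10.7% of all genes were, led by *Irf4* (6.33), *Tbx21* (4.70), *Fosl1* (4.45) and *Gfi1* (4.27), and by *Nfatc3* (-2.82), *Nfatc2* (-2.25), *Runx3* (-2.01) and *Ets1* (-1.75). Their median log2 differences in the 2 responses were 0.33 and 0.74, and those of all genes -0.22 and -0.38. Without both libraries in doubt 6 were called higher and 3 lower with IL-2, and 11 and 4 after withdrawal. By the labels none was called with IL-2 and 3 after withdrawal, all higher. IRF4 acts at cytokine genes, as do AP-1 proteins, a family that includes FOSL1. GFI1 supports the growth of Th2 cells, whereas TBX21 directs the Th1 program.

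In the IL-2 effect after PMA/I, where *Csf2* and *Il3* were higher with IL-2, none of the 24 was higher with IL-2 and 9 were lower at an adjusted P under 0.05, where 8.4% of all genes were lower, and their median was -0.75 on the log2 scale, beside -0.04 for all genes. *Gfi1* was the 1 called, at 100.1 ± 19.97 TPM (SD, n = 3) in TB+ IL-2 and 351 ± 110.1 TPM in TB+ IL-2nil, a log2 difference of -1.78 (adjusted P = 0.00826). This count rested on the settings: without scaling between libraries 1 of the 24 was lower, without both libraries in doubt 2 were and *Gfi1* was not called, and by the labels none was, although none of those that passed changed sign under another scaling. Under quantile normalization 7 were lower and under the median of ratios 10. With the replicate block 10 were lower and 1 higher, and *Gfi1* was called. At rest 9 were lower at an adjusted P under 0.05, where 22.3% of all genes were, and 1, *Jund*, was higher, where 17.3% were, at a log2 difference of 1.23 (adjusted P = 0.0139), and none was called. Without scaling 6 were lower, without both libraries 5 and by the labels none, and under quantile normalization 9, under the median of ratios 8 and with the replicate block 10. *Ets1* was the 1 with an interaction, 1.19 (adjusted P = 0.0145), where 1.57% of all genes had a positive one and 2.66% a negative one. Without both libraries, without scaling and by the labels no regulator had one, where 4, 1 and 0 of all genes did. With the replicate block 6 did, 2 positive and 4 negative, where 6.11% and 5.77% of all genes did.

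Other cytokines of type 2 responses, which lie elsewhere in the genome, also rose with PMA/I. Of 6 tested, 5 were called higher with IL-2, where 3.94% of all genes were, and 6 after withdrawal, where 7.78% were. Without both libraries in doubt 5 were called in each, and by the labels none. *Il31*, an itch cytokine listed at 0 in all 6 resting libraries, had log2 differences of 9.85 and 8.05, *Areg* 7.01 and 7.32, *Il10* 5.45 and 6.62 and *Il24* 4.12 and 3.65. In the IL-2 effect after PMA/I none passed an adjusted P of 0.05, with *Il31* at 1.80 ± 0.61 (SE; adjusted P = 0.0582). Without scaling 2 were higher with IL-2 at that threshold, with the replicate block *Il24* and *Il31* were called higher, and without both libraries *Il31* was. In both PMA/I-treated groups number 1 was highest for *Il31*, *Areg*, *Il10* and *Il6*, as for *Il5* and *Il13*, and a pattern of this kind was shown by 19.6% of all genes. Number 1 was highest in 1 of these groups for *Il9* and in 0 for *Il24*, whereas *Tbx21* showed the pattern in both.

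The genes around the cluster were described in the same way. Within 300 kb of the stretch 45 other genes are annotated, of which 18 were listed and 13 tested. In the PMA/I response with IL-2, 1 was called higher, *Fnip1*, and none lower, where 3.94% and 3.1% of all genes were. *Fnip1*, which encodes folliculin-interacting protein 1, stood at 17.1 ± 0.473 TPM (SD, n = 3) in TB IL-2 and at 119.98 ± 22.9 TPM in TB+ IL-2, a log2 difference of 2.72 ± 0.19 (SE; adjusted P = 3.64e-06). After withdrawal it was again the 1 called higher (2.86), and *Leap2* (-1.95), *Gm12216* (-1.83), *Kif3a* (-1.80) and *Pdlim4* (-1.59) were called lower, 4 of 13 where 10.7% of all genes were. The same 5 genes were called without both libraries in doubt, and none by the labels. In the IL-2 effect after PMA/I none of the 13 was called, where 3.21% of all genes were called higher and 0.41% lower. At an adjusted P under 0.05 alone *Uqcrq* (1.20) and *Sept8* (0.96) were higher there, where 12.9% of all genes were. Without scaling 1 was higher there, and without both libraries 1. Under quantile normalization 1 was higher and 1 lower, under the median of ratios 2 and 1, and with the replicate block 3 and 3. At rest none was called, where 4.69% and 2.73% were. *Uqcrq* (1.51) was higher and *Aff4* (-0.96) and *Gm12216* (-0.63) lower at that adjusted P, where 17.3% and 22.3% were. None had an interaction, where 1.57% and 2.66% did. The median log2 difference of the 13 was -0.17 in the PMA/I response with IL-2, 0.19 in that after withdrawal and 0.20 in the IL-2 effect after PMA/I, beside -0.22, -0.38 and -0.04 for all genes. The end of *Kif3a* overlaps the GENCODE model of *Il4*, and *Gm12223* and *Gm12214* are annotated antisense to *Csf2* and *Il5*. Whether the authors' quantification used strand is not given in the sources used here.

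**Figure D5:**
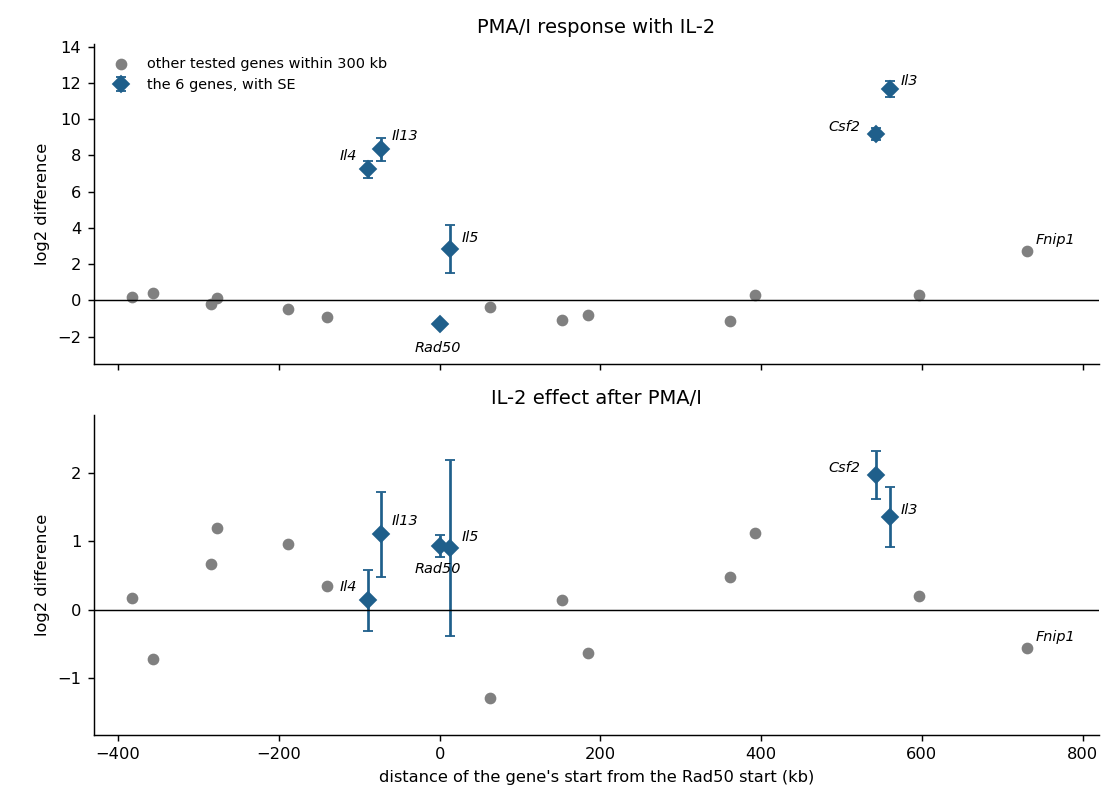
Log2 difference (y axis) of the 6 genes (diamonds, with SE) and of the 13 other tested genes of the region (grey) against the distance of each gene's start from that of Rad50 in kb (x axis), for the PMA/I response with IL-2 (top) and the IL-2 effect after PMA/I (bottom). Il4, Il13, Csf2 and Il3 stand above 7 in the upper panel, where the grey points other than Fnip1 lie between -1.15 and 0.42.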

How the data were processed

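RNA-Seq libraries were made by the authors from rRNA-depleted RNA of mouse CD4 T blasts with a directional kit, 3 libraries in each of 4 groups. The deposited values are FPKM for 24439 gene names per library, with no counts and no normalization between libraries; the study's methods name TPM, which the tests had assumed. Per the submitters' processing notes the tools were Trimmomatic 0.32, HISAT2 2.1.0 and StringTie 1.3.3 and the build was mm9. The time spent in IL-2 ahead of withdrawal is 30 h in the methods and 2 days in the labels.

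Here each library was rescaled to 1000000 TPM, a gene was kept if any library held over 1 TPM of it, and libraries were scaled to an equal 75th percentile. The log2(TPM + 1) values were fitted with limma 3.58.1 (R 4.3.3), 4 groups, 8 residual degrees of freedom, and the fit was tested on simulated data. Other steps ran in Python 3.11.15 (pandas 2.3.3; scipy 1.17.1; numpy 2.4.6), and figures were drawn with matplotlib 3.10.9. FPKM steps give relative depth only, which leaves counting intervals out, and zeros are described as listed values.

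The 6 genes, the gene lists and the placement of 2 libraries were chosen with earlier results of these data known, so the lists are no independent evidence. All 6 genes are named in each comparison, and of each list at most 4 called genes in each direction, those with the largest change. Other list genes with a value were chosen after their values were seen. Lists covered receptors, regulators, other type 2 cytokines and neighbours within 300 kb. As placed, libraries of the same number deviated together from their group means, with r over 0.1 in 18 of 18 pairs (0.101 to 0.531), against 2 of 36 pairs of different numbers; by the labels it was 11 of 18. The numbers come from the labels, which do not say what they mark. Alternatives were the placement by labels, leaving out both libraries, a replicate block, another pseudocount, filters, scalings, short RNAs left out, a variance trend and leaving out each library. The gene lists were refitted by the labels, without both libraries and with the block as alternatives chosen after seeing the data.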

Additional observations from a re-analysis of the deposited data

Results flagged for a closer look

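For *Il3*, the difference between the PMA/I responses with and without IL-2 was 2.02 on the log2(TPM + 1) scale when the replicate number was fitted as a block (adjusted P = 0.0235), which passes the threshold in a fit that called 6.11% of all genes with a larger response and 5.77% with a smaller one. It did not pass without the block (adjusted P = 0.0878), without both libraries in doubt (0.0926), with a pseudocount of 0.1 (0.0811) or by the labels (0.933). It rested on a difference of 1.36 after PMA/I and of -0.67 at rest, where all 6 libraries were at 1.65 TPM or less. Groups of 3 libraries were not searched for outlying samples.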

How the results depend on the processing

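Counts of called genes among the 6 were 4, 5, 1, 0 and 0 in the PMA/I response with IL-2, that after withdrawal, the IL-2 effect after PMA/I, that at rest and the interaction. By the labels they were 0 in all 5. Without both libraries in doubt they were 2 in the IL-2 effect after PMA/I and 1 at rest. With the replicate block the resting IL-2 effect and the interaction had 1 each, and beside *Il5* with IL-2, *Il13* at rest and *Il3* in the interaction the block changed no other call of the 6 genes. A pseudocount of 0.1 gave 6 in the PMA/I response after withdrawal, with *Rad50* called lower, 0 for the IL-2 effect after PMA/I and 3 at rest. No scaling gave 6 in the PMA/I response after withdrawal and 2 in the IL-2 effect after PMA/I. Quantile normalization gave 2 in the IL-2 effect after PMA/I and 1 at rest, and short RNAs left out gave 2 at rest. Leaving out 1 library at a time gave 4 to 5, 4 to 5, 1 to 2, 0 to 2 and 0. Of 270 single differences under alternatives other than the placement, 252 kept direction and side of the threshold, 2 lost a call, 13 gained one and 3 turned sign, all in the interaction. These were *Csf2* at -0.81 with a pseudocount of 0.1, *Il4* at 0.018 without scaling and *Rad50* at -0.18 under quantile normalization. Without both libraries the interaction of *Il4* was 0.32 and that of *Il5* 0.89. By the labels the signs that turned were those of *Il3*, *Csf2*, *Il4* and *Il13* in the IL-2 effect after PMA/I (-2.15, -1.27, -2.46 and -2.04) and of *Csf2*, *Il4* and *Il13* at rest (-1.81, -2.01 and -1.52), as 2 libraries then sit in groups of the other state of stimulation. Single left-out libraries turned *Il4* (-0.17 to 0.52) and *Il5* (-0.24 to 2.31) in the IL-2 effect after PMA/I, and *Il5* (-1.74 to 0.81) and *Il13* (-0.95 to 0.13) in the interaction. The cause of the other changes was not tested. Without scaling the median of all genes shifted by -0.40 in the PMA/I response after withdrawal, 0.27 in the IL-2 effect after PMA/I and 0.35 in the interaction, and quantile normalization and the median of ratios shifted it by 0.11 and 0.12 in the PMA/I response with IL-2 and by 0.24 and 0.18 in that after withdrawal. Low resting levels of *Il3*, *Il5* and *Csf2* limit any fold change that starts from them.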
